A study of Mus musculus with 11 samples.

Results

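The baseline transcriptome of mouse marrow stromal cells was read from the 4 libraries whose treatment label is 4 intravenous injections of phosphate-buffered saline (PBS). These are 4 of the 11 libraries of the series, and they were picked out by that label, not by any measured value. Earlier results of these data were known when this part of the series was chosen. The study asks what doxorubicin leaves behind in these cells, and its remaining libraries come from mice given doxorubicin; they enter no value below except an alternative scaling. No contrast with treatment was made, so no difference between groups was tested and the values describe 4 samples.

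All 4 libraries are female by their titles and carry the genotype Lepr-Cre;LSL-tdTomato+/-, which every other group of the series carries too. Cells were collected 8 weeks after treatment. No age is stated for the PBS mice, whereas the labels call both doxorubicin groups young adults. Cre recombinase driven by the leptin receptor gene (Lepr) removes a stop from the tdTomato reporter, so red fluorescence marks any cell that has used Lepr and all of its descendants, including those that no longer use it. Marrow was spun out of the bone, digested with enzymes and sorted on tdTomato. Poly(A) RNA was amplified by the SMART-Seq v4 Plus method, so strand was not recorded. The labels number the libraries as biological replicates.

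Marrow stromal cells surround the sinusoids and feed blood formation. They secrete the chemokine CXCL12 and stem cell factor, which retain and sustain haematopoietic stem cells, and they are also the source of new osteoblasts and marrow adipocytes in the adult. The leptin receptor, adiponectin, VCAM1 and the platelet-derived growth factor receptor beta are widely used to recognise them.

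In the library PBS 4, the title names doxorubicin whereas the treatment label names PBS, and the library name runs on from those of PBS 1 to 3. The treatment label was followed. Means and counts below include PBS 4. The list ranges that it sets and the number of widely varying genes are also given without it. Counts of genes for which a library was highest or lowest were not recounted without PBS 4. By the column names, the 4 libraries shared 1 flow cell. Total counts ran from 29540422 to 42784036 per library. Between 22218 and 22852 of the 24718 genes had a count in a library. Mitochondrially encoded genes took 0.418 to 0.606% of counts and ribosomal protein genes 0.657 to 0.805%. Xist, which is transcribed from the inactive X chromosome, had 1835, 1545, 2216 and 3122 counts in PBS 1 to 4, so it was present in every library. Chi-square values for pairs of libraries were 61.1 to 159 per gene, well above counting noise, so no pair was merged. That leaves the labels as the only source for 4 separate samples, since repeat amplifications of 1 sample could also exceed counting noise.

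Levels are given on 2 scales. CPM values (counts relative to the library total) are scaled for library composition and serve to compare a gene between libraries. TPM values, in which counts are first divided by the gene's exon length, and serve to rank genes, with rank 1 the highest of 24103 genes that have a length. In all 4 libraries, 12808 genes reached 1 CPM, 8867 reached 10 CPM, 1586 reached 100 CPM and 78 reached 1000 CPM. Only Cxcl12 reached 10000 CPM in each library. It alone took 5.17% ± 0.22 of counts (SD, n = 4), the top 10 genes of a library took 11.7% ± 0.34 and the top 100 took 29.5% ± 0.72. Between 553 and 626 genes accounted for 50% of a library's counts.

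The label was checked against the 6 defining stromal markers, and all 6 stood high in all 4 libraries. Cxcl12 had levels of 55317, 50763, 49185 and 51692 CPM in PBS 1 to 4, a mean of 51739 ± 2600 (SD, n = 4). It ranked 1 by TPM in each library and its highest and lowest libraries differed 1.12-fold. Lepr itself had 7281, 5428, 6875 and 5350 CPM and ranked 29. PBS 1 and 3 were the higher pair for Lepr, with a 1.36-fold range. Adipoq, which encodes the hormone adiponectin, had 2593, 2122, 1943 and 2622 CPM, and its short exons put it at rank 9 by mean TPM. In PBS 1 to 4 alone, Adipoq ranked 11, 11, 14 and 9. Vcam1, an adhesion molecule for blood progenitors, had 3507, 2900, 2534 and 2628 CPM and ranked 83. Pdgfrb had 1904, 1545, 1528 and 1273 CPM and ranked 95. Kitl, which encodes stem cell factor, had the lowest level of the 6, with 1145, 908, 968 and 1093 CPM at rank 195, still within the top 0.809% of genes. PBS 1 was the highest library for 5 of the 6 markers, against 28.9% of the 7504 genes that averaged 20 CPM or more. The largest standard deviation of log2 CPM among the 6 was 0.24, for Pdgfrb.

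By TPM, the order of the 6 was Cxcl12, Adipoq, Lepr, Vcam1, Pdgfrb and Kitl. Cxcl12 had 23235 TPM ± 1042, Adipoq 6169 ± 901, Lepr 3243 ± 481, Vcam1 1197 ± 172, Pdgfrb 1046 ± 164 and Kitl 639 ± 65.1 (SD, n = 4). Vcam1 and Pdgfrb are the only neighbours in this order whose library values overlap. With coding length in place of exon length, chosen after seeing the data, Kitl (rank 69) came before Pdgfrb (rank 249).

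Promoters of 4 abundant genes are shown because they differ in the TATA box, the site that fixes the start of many inducible genes. The last 100 bases before the RefSeq start (GRCm38.p6) are given for Cxcl12, the top gene, at chr6:117168435-117168534, for Kitl at chr10:100015721-100015820, for Igfbp4 at chr11:99041144-99041243 and for Fos at chr12:85473790-85473889. All 4 are on the plus strand, and capitals mark the letters TATAAA.
Cxcl12: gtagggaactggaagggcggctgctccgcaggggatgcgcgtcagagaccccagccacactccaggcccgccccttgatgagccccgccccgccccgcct
Kitl: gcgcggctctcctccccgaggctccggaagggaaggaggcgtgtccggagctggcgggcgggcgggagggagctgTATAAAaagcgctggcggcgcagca
Igfbp4: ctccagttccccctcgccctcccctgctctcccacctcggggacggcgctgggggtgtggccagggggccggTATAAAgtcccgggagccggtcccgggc
Fos: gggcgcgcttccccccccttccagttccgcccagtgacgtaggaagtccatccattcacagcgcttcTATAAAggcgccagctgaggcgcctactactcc

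TATAAA was searched on the sense strand from 45 to 16 bases before the start, and no other motif was searched. With mitochondrially encoded genes left out, it was found for 8 of the 79 genes with a promoter sequence among the 100 highest by TPM (10.1%). The share was 1.46% of 6040 genes at 20 CPM or more on average, and 2.57% of all 27025 genes in the RefSeq promoter table. Of the 6 defining markers, 4 had a promoter sequence, and Kitl alone among them held the motif. A match of letters is no measure of binding.

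The 20 genes with the highest TPM, leaving out mitochondrial and ribosomal protein genes, fall into a few functional groups. Bone matrix and its remodelling gave 3 of them. Spp1 (osteopontin) ranked 3 with 17071 TPM ± 3547, Ibsp (bone sialoprotein) ranked 6 with 11600 ± 1635, and Mmp13 (collagenase 3) ranked 16 with 4993 ± 676 (SD, n = 4). Spp1 had 7367, 8457, 9278 and 5557 CPM, with PBS 4 lowest.

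Antigen presentation and interferon response genes were B2m, H2-D1, H2-K1 and Ifitm3. B2m, the light chain of class I molecules, ranked 2 with 19378 TPM ± 1853, and the heavy chain genes H2-D1 and H2-K1 had 10210 ± 690 and 4107 ± 312 TPM. The H2 genes are near-identical to their neighbours, so their split is uncertain. Ifitm3, an antiviral membrane protein, had 4643 TPM ± 207 and varied least of the 20, with a coefficient of variation of 4.36%.

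Secreted regulators were the third group. Igfbp4, Igfbp5 and Igfbp7, which bind insulin-like growth factors, had 5655 TPM ± 1043, 5561 ± 1138 and 4462 ± 387. Gas6, a ligand of TAM receptors, had 6136 ± 867 TPM, Cxcl14, a chemokine, 4547 ± 669, and Serping1, the inhibitor of complement C1, 8152 ± 492. Gpx3 (secreted glutathione peroxidase) ranked 4 with 14420 TPM ± 2318, while Hp (haptoglobin) and Trf (transferrin), better known from liver, ranked 14 and 15. Cxcl14 had 2798 CPM in PBS 1 and 2060 to 2109 CPM in the other 3 libraries.

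Tmsb4x (an actin-binding peptide) and Fos (an immediate early transcription factor) complete the 20. Tmsb4x had 3429, 3441, 4702 and 6342 CPM, higher in PBS 3 and 4 than in PBS 1 and 2, and its 1.85-fold range was the widest of the 20.

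**Figure D1:**
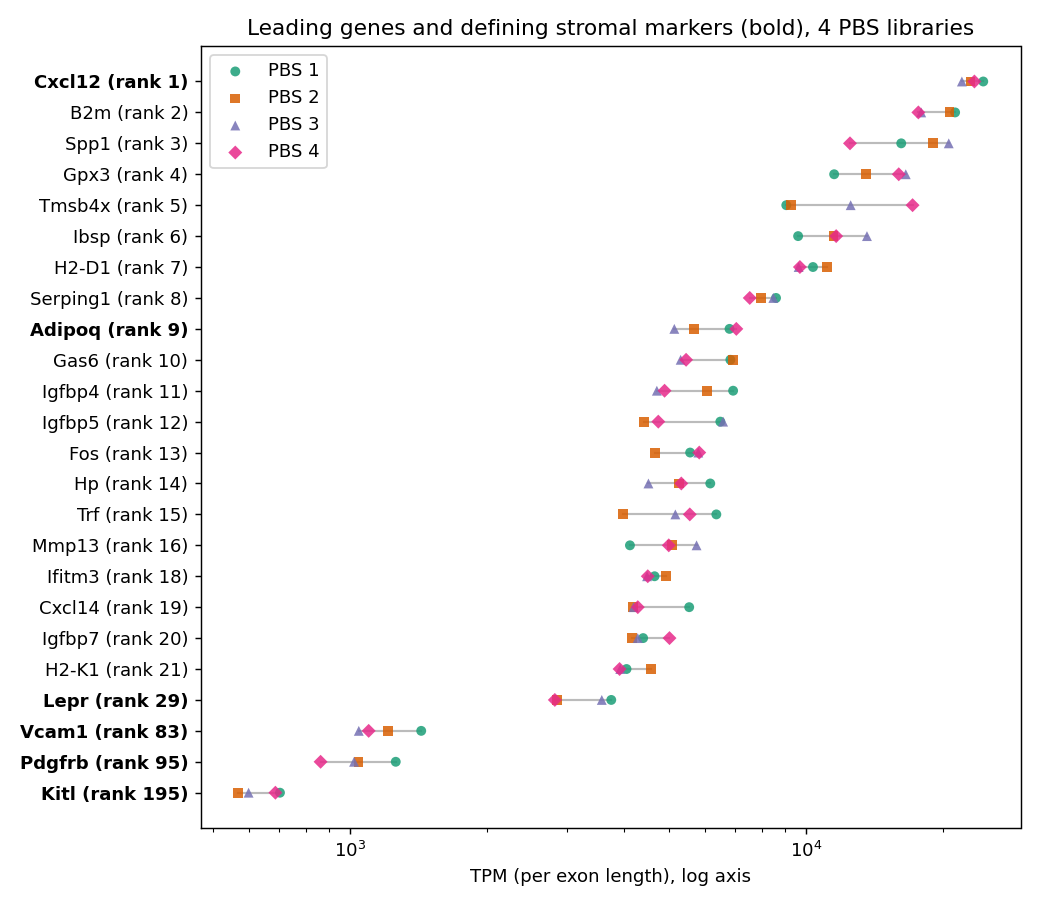
Level of the 20 leading genes and the 6 defining stromal markers (bold) in TPM on a log axis, with 1 point per PBS library, and a grey line from the lowest to the highest library. Cxcl12 is alone at the top with 23235 TPM ± 1042, and Spp1 and Tmsb4x have the longest lines among the 5 highest genes.

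Among 20 listed haematopoietic niche factors, 19 reached 1 CPM in each library and 11 were in the top 10% of genes by TPM. By TPM, Csf1, the growth factor of macrophages, came after Cxcl12 and Vcam1 and before Kitl. It had 1112, 1090, 873 and 873 CPM and ranked 182. In the wider list of chemokines and cytokines, 31 of 38 reached 1 CPM in each library. The niche list summed to 58282 CPM ± 3201 (SD, n = 4) with a 1.14-fold range between libraries, most of it from Cxcl12.

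Transcription factors had the most even sum of the lists. Their sums were 6421, 6383, 6487 and 6184 CPM, a range of 1.05-fold with PBS 4 and 1.02-fold without it. None of the 35 with a mean of at least 20 CPM had a standard deviation of log2 CPM above 0.5. Of all 7504 genes at that mean, 3.11% exceeded 0.5, and none of 30 receptor genes or 20 stromal identity genes did. The median standard deviation of the 35 was 0.17, against 0.14 for all 7504, so the single factors were not more even than other genes. Id3 (an inhibitor of basic helix-loop-helix factors) ranked 113, Snai2 122, Cebpb 212 and Foxc1, a factor needed for the CXCL12-rich niche, 237. Foxc1 had 724, 815, 882 and 751 CPM. Cebpb, a driver of adipogenesis, was the least even of these 4, with 182, 305, 247 and 196 CPM. Ebf1 and Runx1, factors named here after their values were seen, had 398 to 437 CPM and 608 to 659 CPM, ranges within 1.1-fold.

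Receptors were broadly present, with 32 of 33 at 1 CPM in each library and 17 in the top 10% of genes. Beside Lepr and Pdgfrb, the leading members were Tgfbr3, a co-receptor for transforming growth factor beta, with 692 TPM ± 61.2, and Ifngr1, a chain of the interferon gamma receptor, with 620 ± 50.2. Complement genes were also high: 6 of 11 were in the top 10%. C4b had 3364, 2496, 3410 and 2382 CPM, and C1ra had 853, 748, 789 and 703 CPM. PBS 4 was the lowest library for both.

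Bone matrix genes were abundant but uneven. The 23 measured genes of the osteoblast and bone matrix list summed to 38945, 37172, 36754 and 25030 CPM, so PBS 4 lay apart below 3 libraries that were close to each other. The range was 1.56-fold over 4 libraries and 1.06-fold without PBS 4. PBS 4 was the lowest library for 14 of the 22 genes that averaged 1 CPM or more, and for 35.2% of all 7504 genes at 20 CPM or more on average. In bulk RNA, fewer cells of a type and less RNA per cell cannot be told apart.

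Col1a1, the main chain of type I collagen, had the widest spread among genes above 500 CPM. It had 6116, 4272, 3221 and 819 CPM, a 7.47-fold range, and its mean was 3607 CPM ± 2210 (SD, n = 4) with PBS 4 and 4536 ± 1465 (n = 3) without it. Col1a2, the partner chain, and Dmp1, an osteocyte matrix gene, are named here after their values were seen. Col1a2 had 7689, 6014, 5115 and 2894 CPM, and Dmp1 had 156, 217, 233 and 40.6 CPM. All 3 were lowest in PBS 4. Not every bone gene was: Ibsp had 5491, 6426, 7701 and 6502 CPM and Mmp13 3034, 3681, 4208 and 3608 CPM, both lowest in PBS 1.

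In the extracellular matrix list, PBS 4 was lowest for 29 of 43 genes, against 35.2% of all 7504 genes. The sums of the list were 50740, 44830, 42669 and 32030 CPM, with PBS 1 highest, a range of 1.58-fold with PBS 4 and 1.19-fold without it. Tnc (tenascin C) had 7510, 7827, 6265 and 4328 CPM, and Sparc, a collagen-binding protein, 4600, 3943, 3398 and 2811 CPM. Serpinh1, the collagen chaperone, was even, with 1602, 1612, 1442 and 1515 CPM.

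Cartilage genes were far lower. Of 18 measured, 9 reached 1 CPM in each library and 2 were in the top 10% of genes. Col2a1, the type II collagen of cartilage, had 202, 243, 415 and 52.4 CPM. Col11a2 had 101, 55.6, 51.0 and 5.68 CPM, a 17.7-fold range. Comp, a cartilage and tendon matrix protein, had 223, 120, 89.1 and 54.4 CPM. PBS 4 was lowest for all 3, and the sum of the list ranged 3.21-fold with PBS 4 and 1.2-fold without it. Of the 9 genes that averaged 1 CPM or more, PBS 4 was lowest for 5, PBS 3 for 3 and PBS 2 for 1. Over all 7504 genes, PBS 4 was lowest for 35.2%.

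Genes of fat cells were led by Lpl (lipoprotein lipase), Adipoq and Apoe, a lipid carrier. Lpl had 3164, 3211, 2619 and 2440 CPM and Apoe 2292, 1941, 1763 and 2071 CPM. Angptl4, an inhibitor of lipoprotein lipase, was less even, with 337, 277, 215 and 423 CPM. The list as a whole was mixed, as 19 of 25 measured genes reached 1 CPM in each library and 8 were in the top 10%. Fibroblast and periosteum genes had a similar share, with 8 of 20 in the top 10%. Dcn (decorin) had 914, 743, 1204 and 1199 CPM, and Gsn (gelsolin), Ctsk (cathepsin K) and Lum (lumican) had means of 678, 251 and 317 CPM.

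Immediate early and dissociation stress genes were high in all 4 libraries, and 18 of 25 were in the top 10% by TPM. Fos ranked 13, with 3619, 2963, 3736 and 3703 CPM. PBS 4 was the highest library for 20 of the 25 (for all 7504 genes the share was 29.5%). The sums of the list, 13354, 12476, 14949 and 16717 CPM, ranged only 1.34-fold with PBS 4 and 1.2-fold without it. Genes of this list are known to be induced within minutes of a stimulus.

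Cell cycle genes were low but orderly. Their sums were 768, 1084, 678 and 463 CPM. All 27 were highest in PBS 2 and 24 of 27 were lowest in PBS 4, whereas among 7504 genes with a mean of at least 20 CPM, PBS 2 was highest for 22.2% and PBS 4 lowest for 35.2%. Genes of the cell cycle are known to vary together, so the 27 are not independent observations. The sums ranged 2.34-fold with PBS 4 and 1.6-fold without it. The housekeeping list ranged 1.12-fold with PBS 4 and 1.06-fold without it.

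Spread between the libraries was small for most genes. Over those 7504 genes the median standard deviation of log2 CPM was 0.14, with a 10th to 90th percentile range of 0.06 to 0.30. The median coefficient of variation was 9.57%, against 2.34% from counting alone, and edgeR's common biological coefficient of variation, fitted on 12799 genes, was 0.193. With clone names and immunoglobulin segments left out, the 8 genes with the smallest spread were Rpl13, Rpl21, Sys1, Slc39a6, Fam20b, Tmco3, Rab14 and Ampd2. Rpl13, a ribosomal protein gene, had between 277 and 279 CPM in every library, and Rab14, a membrane trafficking gene, between 266 and 270 CPM.

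A gene was taken as widely varying where that standard deviation exceeded 0.5. There were 233 such genes (3.11% of 7504), 191 when PBS 4 was left out and the filter was applied again. Of the marker genes of other cell types, 37 of 52 varied widely (71.2%), and of stroma list genes 26 of 218 (11.9%). Without PBS 4, and without applying the filter again, these shares were 55.8% and 7.34% of the same 52 and 218 genes. Of the same 7504 genes, 183 varied widely without PBS 4, with the scaling recomputed. A filter on the mean also lets in genes that are high in only 1 library.

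**Figure D2:**
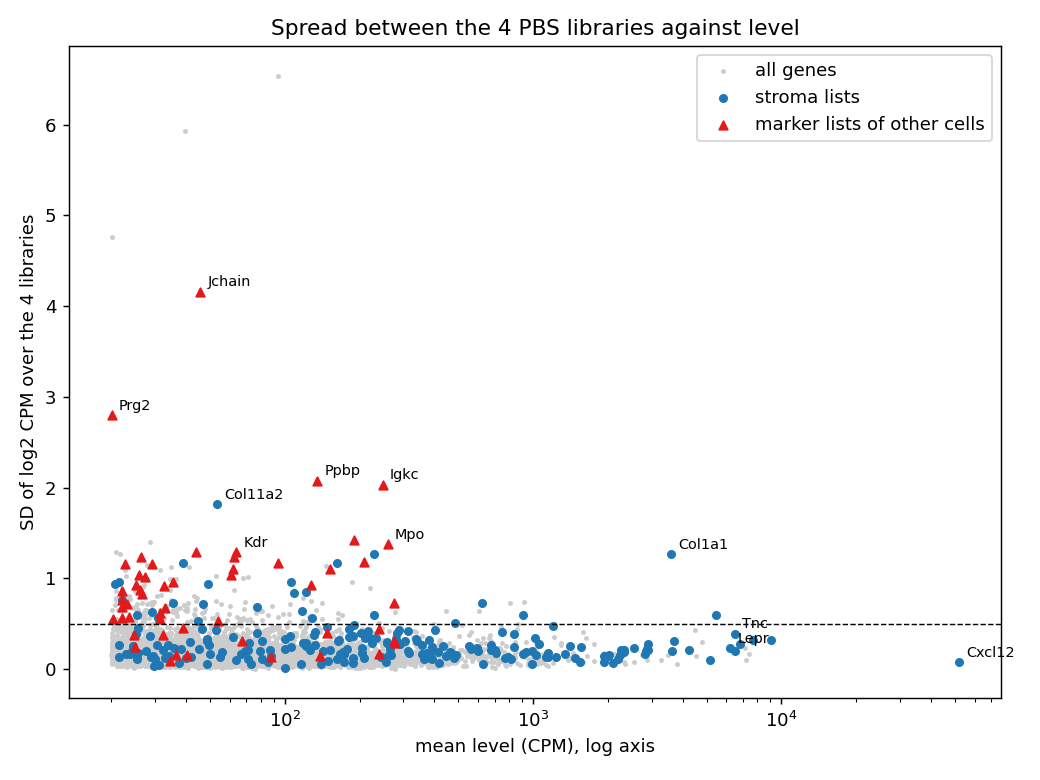
Spread between the 4 libraries (SD of log2 CPM) against mean level in CPM on a log axis, for the 7504 genes with a mean of at least 20 CPM. Grey points are all genes, blue points genes of stroma lists, and red triangles markers of other cells. The dashed line is the limit of 0.5, above which 37 of 52 triangles lie, and Col1a1 is the highest abundant blue point.

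PBS 4 was the lowest library for 118 of the 233 widely varying genes (50.6%, against 35.2% of all 7504) and PBS 1 the highest for 36.1% (against 28.9%). The libraries differed in a graded way. PBS 1 and PBS 2 had a rank correlation of 0.972 across the 7504 genes, with 46 genes more than 2-fold apart. PBS 1 and PBS 4 had 0.935 and 190 genes, and these were the highest and lowest pairs. PBS 3 and PBS 4 had a rank correlation of 0.965 and 73 genes, and PBS 1 and PBS 3 had 0.962 and 118 genes. By the Pearson correlation of log2 CPM, the order of these pairs was reversed, at 0.961 and 0.962. PBS 2 and PBS 3 were closest by that measure (0.976) and PBS 2 and PBS 4 farthest apart (0.945). These correlations are across genes, which are not independent.

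With clone names and immunoglobulin segments left out, the 4 genes that lay highest in PBS 4 against the other 3 libraries were Neat1, Firre, Iqcn and Cxcl1. Neat1, a nuclear long noncoding RNA, had 45.4, 87.8, 180 and 271 CPM, and Firre, an X-linked long noncoding RNA, had 10.1, 12.8, 38.0 and 50.4 CPM. The libraries ranked alike for Xist, which had 44.2, 49.3, 69.0 and 103 CPM, with PBS 4 highest and PBS 1 lowest for all 3. Iqcn had 15.6, 20.6, 35.4 and 74.4 CPM. Cxcl1, a neutrophil-attracting chemokine, had 23.2, 22.6, 29.4 and 66.1 CPM, so only PBS 4 stood out. Stc1, a secreted calcium-regulating hormone, was instead set apart by a low value in PBS 1, with 15.9, 38.0, 41.0 and 46.2 CPM.

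**Figure D3:**
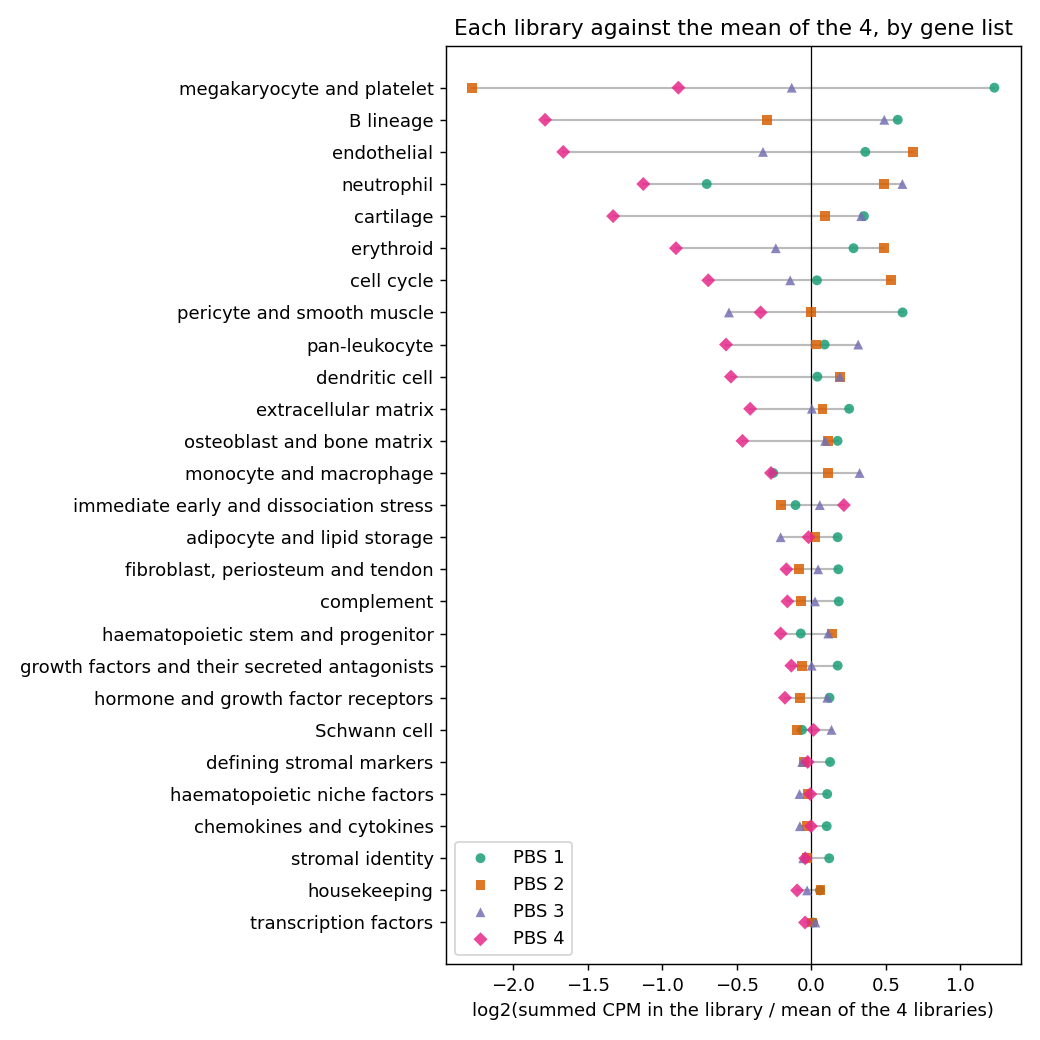
Summed CPM of each gene list in each library as log2 of the ratio to the mean of the 4 libraries, for lists with a mean sum of at least 100 CPM, with the widest range at the top. Megakaryocyte, B lineage and endothelial lists are the widest, and transcription factors the narrowest with a 1.05-fold range.

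Markers of other marrow cells were present in every library. The pericyte and smooth muscle list had sums of 2529, 1655, 1128 and 1307 CPM, a range of 2.24-fold and of 1.47-fold without PBS 1. The 6 defining stromal markers, for comparison, summed to 65776 CPM ± 4037 (SD, n = 4). Stromal cells are known to use several of these mural genes too, so the sum is no measure of another cell. Acta2 and Myh11, contractile genes that define smooth muscle, had 426, 191, 57.8 and 155 CPM and 316, 146, 50.8 and 96.7 CPM. Rgs5, a pericyte gene, had 461, 286, 139 and 217 CPM, and Myl9 346, 292, 208 and 256 CPM. All 4 were highest in PBS 1 and lowest in PBS 3, and PBS 1 was highest for 14 of the 15 genes of the list, against 28.9% of all 7504 genes. Cxcl13, a B cell chemokine, and the olfactory receptor gene Olfr558 ran in the same order of libraries, with 36.4, 26.3, 7.97 and 15.0 CPM and 52.0, 28.8, 9.90 and 21 CPM.

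Endothelial genes summed to 674, 840, 419 and 166 CPM. Plvap, which marks fenestrated endothelium, had 122, 154, 73.4 and 24.8 CPM, and Kdr, the main receptor for vascular endothelial growth factor, had 70.0, 122, 48.8 and 14.8 CPM. PBS 2 was highest for 17 of the 21 genes and PBS 4 lowest for 20. Over all 7504 genes, these shares were 22.2% and 35.2%. The sums ranged 5.07-fold with PBS 4 and 2.00-fold without it. Sele, an endothelial selectin, ordered the libraries as Kdr did, with 29.9, 35.8, 15.6 and 5.09 CPM.

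Blood cells left traces that differed by lineage. Ptprc, which encodes the leukocyte antigen CD45, had 14.3, 17.4, 21.2 and 11.4 CPM. The 12 pan-leukocyte genes summed to 250, 240, 292 and 158 CPM, a range of 1.85-fold with PBS 4 and 1.22-fold without it. PBS 4 was lowest for 10 of them, against 35.2% of all 7504 genes. Fcer1g and Lcp1 led this list with means of 40.2 and 38.8 CPM.

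Megakaryocyte and platelet genes had the widest list range, 11.3-fold, with sums of 760, 67.1, 296 and 175 CPM. All 12 genes with a mean of at least 1 CPM were highest in PBS 1, and 11 were lowest in PBS 2. Over all 7504 genes, these shares were 28.9% and 21.7%. Ppbp and Pf4, which encode platelet chemokines, had 364, 11.5, 108 and 55.1 CPM and 103, 18.7, 57.2 and 62.9 CPM. Itga2b, the platelet integrin, had 98.3, 17.9, 45 and 13.8 CPM. Plek and Rgs18, both known from platelets but not in the list, had 133, 27.1, 70.6 and 40.0 CPM and 35.2, 8.23, 23.7 and 20.7 CPM. The range was 4.41-fold without PBS 1, 4.34-fold without PBS 2, and 11.3-fold without PBS 3 or PBS 4.

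B lineage genes summed to 846, 460, 795 and 164 CPM, a range of 5.15-fold with PBS 4 and 1.84-fold without it. Igkc, Ighm and Jchain made up most of the sum in PBS 1 to 3. Of 17 genes that averaged 1 CPM or more, PBS 3 was highest for 14, PBS 1 lowest for 9 and PBS 4 lowest for 2. Over all 7504 genes, these shares were 19.3%, 23.3% and 35.2%. Igkc, the kappa constant region, had 253, 292, 427 and 19.6 CPM. Ighm, the mu heavy chain, had 477, 58.6, 164 and 62.1 CPM, so PBS 1 was high and PBS 2 and 4 low. Jchain, made by antibody-secreting cells, had 59.4, 49.2, 73.4 and 0.131 CPM, the last from 4 counts, and its standard deviation of log2 CPM of 4.16 dropped to 0.29 without PBS 4. Ighg1 and Igha, constant regions of class-switched antibodies, fall outside the naming rule and are named after their values were seen. Ighg1 had 1, 3891, 8063 and 0 counts and Igha 0, 3603, 1394 and 0 counts. Antibody transcripts of these classes were thus nearly confined to PBS 2 and 3, while PBS 1 carried Jchain, Igkc and Ighm. A count of 0 allows up to 0.0723 CPM in PBS 1 and 0.0986 CPM in PBS 4, counting error only. In PBS 4, Igkc and Jchain were lowest and Ighm was close to PBS 2, although Ms4a1, which encodes the B cell antigen CD20 and was chosen after its values were seen, had 4.97, 4.40, 9.47 and 12.8 CPM, highest in PBS 4.

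Of 13 neutrophil genes with a mean of at least 1 CPM, PBS 4 was highest for 6 and lowest for 4, and PBS 1 was lowest for 8. Over all 7504 genes, these shares were 29.5%, 35.2% and 23.3%. The granule genes of promyelocytes, Mpo and Elane, had 176, 400, 410 and 53.9 CPM and 32.3, 87.7, 105 and 21.9 CPM, high in PBS 2 and 3 and lowest in PBS 4. S100a8 and S100a9, which are abundant in mature neutrophils and were chosen after their values were seen, were highest in PBS 4, with 3.79, 6.70, 11.6 and 27.5 CPM and 5.16, 5.36, 10.5 and 24.9 CPM. Monocyte and macrophage genes summed to 338, 437, 505 and 335 CPM. Of 13 with a mean of at least 1 CPM, PBS 3 was highest for 8 and PBS 4 for 2. PBS 4 was lowest for 6 and PBS 1 for 5. Over all 7504 genes, PBS 3 was highest for 19.3% and PBS 4 lowest for 35.2%. Lyz2 (lysozyme) had 23.4, 19.8, 39.1 and 43.5 CPM, highest in PBS 4, where the sum was lowest. Mrc1, named here after its values were seen, had 34.2, 44.6, 21.3 and 8.90 CPM, lowest in PBS 4.

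Erythroid genes summed to 415, 479, 289 and 182 CPM, with PBS 4 lowest for 12 of 17, PBS 2 highest for 10 and PBS 3 highest for 6. Over all 7504 genes, these shares were 35.2%, 22.2% and 19.3%. The range of the erythroid sums was 2.63-fold with PBS 4 and 1.66-fold without it. Car1, a carbonic anhydrase of early erythroid cells, had 178, 202, 72.6 and 56.1 CPM, and Ermap 35.5, 55.0, 16.7 and 8.94 CPM. PBS 2 was highest for both, but lowest for 5 of the 17 (and for 21.7% of all 7504 genes). Hbb-bs, a beta globin gene named here after its values were seen, had 17.8, 14.5, 35.1 and 26.6 CPM. It was lowest in PBS 2 and highest in PBS 3. Whether the cell cycle genes belong to traced stromal cells or to such other cells was not tested.

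Mast cell, basophil and eosinophil genes were highest in PBS 2 for 6 of the 7 that averaged 1 CPM or more, against 22.2% of all 7504 genes. Prg2, the eosinophil major basic protein, had 0.627, 66.9, 2.87 and 9.73 CPM, a 107-fold range. Prss34, a basophil protease, had 19.0, 48.9, 35.2 and 22.8 CPM. PBS 1 was lowest for all 7, against 23.3% of all 7504 genes. The sums ranged 5.93-fold, 3.18-fold without PBS 1 and 2.05-fold without PBS 2.

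Apart from dendritic cell genes, the remaining lists were low or even. Dendritic cell genes summed to 196, 218, 218 and 131 CPM, a range of 1.66-fold with PBS 4 and 1.11-fold without it. PBS 4 was lowest for 6 of the 7 that averaged 1 CPM or more, against 35.2% of all 7504 genes. Irf8 and Cd74 led the list, with means of 67.0 and 53.9 CPM. Cd74 had 50.1, 60.7, 73.7 and 31.2 CPM. The stem and progenitor list was carried by Kit, the receptor for stem cell factor, with 132, 153, 147 and 123 CPM, and by Hlf with a mean of 24.9 CPM. Schwann cell genes summed to 114 CPM ± 8.26 (SD, n = 4), most of it S100b with 85, 77.7, 94.2 and 93.8 CPM, while Mbp, a myelin gene, averaged 7.69 CPM. T and natural killer cell genes summed to 11.8 to 23.0 CPM, led by Nkg7 and Lck with means of 6.94 and 1.55 CPM. Osteoclast genes summed to at most 5.64 CPM, with Acp5 and Tnfrsf11a averaging 2.79 and 0.920 CPM. Skeletal muscle genes summed to at most 7.64 CPM, with Myl1 and Mylpf averaging 2.78 and 1.67 CPM.

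**Figure D4:**
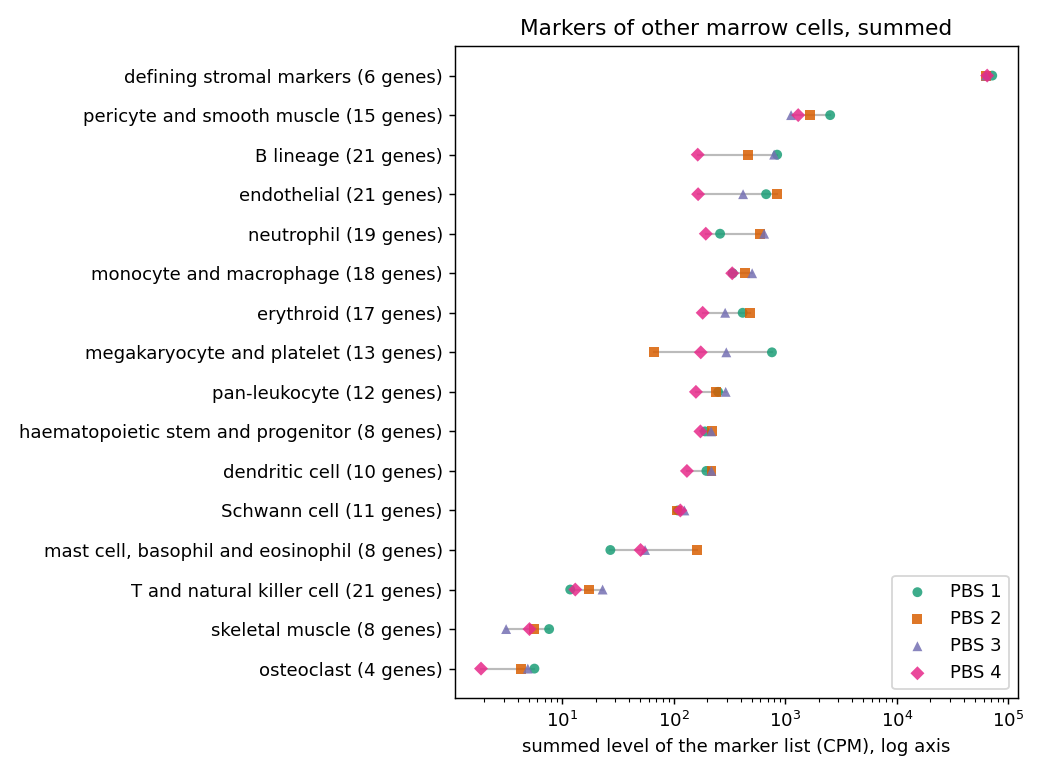
Summed level of each marker list of other cell types in CPM on a log axis, with the defining stromal markers on top, 1 point per library and a grey line over their range. The megakaryocyte list spans 67.1 to 760 CPM, while the Schwann cell and stem and progenitor lists hardly spread.

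Some other genes were named for their spread or their list. Fmod (fibromodulin) had 31.3, 37.7, 7.26 and 7.39 CPM, so PBS 1 and 2 were high and PBS 3 and 4 low. Col22a1, a collagen of tissue junctions, had 47.1, 34.9, 27.1 and 5.32 CPM with PBS 4 lowest. Col11a1, a fibrillar collagen of cartilage, was more even, with 123, 121, 103 and 71.9 CPM. The endothelial and pan-leukocyte sums were also lowest in PBS 4, and their part in the matrix levels was not tested.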

How the data were processed

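The labels describe mouse marrow cells sorted on tdTomato, and each PBS library is 1 labelled biological replicate. The deposited values are whole-number read counts per gene, with no normalization, in a table of 24718 genes. The submitters' processing notes list STAR 2.7.9a and featureCounts 2.0.1 for the GRCm39 build, with Trim Galore 0.6.6, SAMtools 1.17, MultiQC 1.7 and FastQC 0.11.5. Annotation, strand and multi-mapping settings are not given in the sources used. Overlapping genes, antisense partners and near-identical copies therefore share reads in an unknown way.

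CPM used the TMM factors of edgeR 4.0.16 (R 4.3.3) over the 4 PBS libraries. TPM divided counts by merged exon lengths from GENCODE M21, which is another build and was used for lengths only; 24103 genes had one, holding at least 99.8% of counts. Log2 values for spreads used a prior count of 2. Means are over 4 libraries with SD. The spread step was tested on simulated counts. Python 3.11.15 with pandas 2.3.3 and numpy 2.4.6 did the rest. Promoter sequences are RefSeq's on GRCm38.p6.

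The text names the 20 highest genes by TPM, the 4 highest of each of 13 stroma lists, the 2 highest of each of 15 lists of other cells, the 12 widest and 8 narrowest genes, and the 4 that lay highest and the 4 lowest in each library. Clone names and immunoglobulin segments were left out of the last 2 rules. Of 638 listed genes, 613 have a row. Some genes the rule names are not reported here. The libraries and lists were chosen with earlier results of these data known. Samples were grouped by the treatment label alone, and no group was compared with another. Dixon's ratio was used only to pick outlying libraries. Alternatives were other scalings, other filters, another prior count, leaving out each library, mitochondrial genes or markers of other cells, ranking each library alone, and coding length, the last added after seeing the data.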

Additional observations from a re-analysis of the deposited data

Results flagged for a closer look

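Of 144 values examined (library totals and shares, list sums and named genes), 6 had 1 library set far from the other 3 relative to the range, by Dixon's ratio at the 95% level. Chance flags about 1 in 20 groups of independent values. The 144 share genes, and some were named because 1 library lay apart, so the 4.17% flagged cannot be read against that rate.

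PBS 4 was the outlying library for 2 of them. The osteoblast and bone matrix list summed to 25030 CPM in PBS 4, against 36754 to 38945 CPM in the other 3. Cxcl1 stood at 66.1 CPM in PBS 4, against 22.6 to 29.4 CPM.

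PBS 1 was set apart for 2 values. The stromal identity list summed to 98772 CPM there, against 87530 to 88962 CPM, and Cxcl14 had 2798 CPM, against 2060 to 2109 CPM. PBS 2 was set apart for Prg2, at 66.9 CPM against 0.627 to 9.73 CPM, and for Fos, at 2963 CPM against 3619 to 3736 CPM.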

How the results depend on the processing

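Of 215 recomputed values, 203 stayed within the spread between libraries or, for counts and the median spread, within 1.5 times the main value. All 42 alternatives for the levels of the 6 markers and all 105 for the summed markers of other cells were among them, as were those of the shares of counts. Leaving out 1 of 4 libraries cannot move a mean by more than that spread, so these omissions say nothing about stability. Summed megakaryocyte markers went from 325 to 181 CPM without PBS 1, and mast cell, basophil and eosinophil markers from 73.3 to 44.2 CPM without PBS 2. The number of detected genes, 12808 at 1 CPM in each library, was 19791 with a limit of 1 count. The number of widely varying genes, 233, was 698 when the limit on the mean was 5 CPM and 1146 when it was 1 CPM in each library, as both keep more genes. It ran from 191 to 288 when 1 library was left out. The median spread ran from 0.11 to 0.14 in the same way, lowest without PBS 4.

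With coding length in place of exon length, chosen after seeing the data, ranks moved from 29 to 40 for Lepr, 9 to 18 for Adipoq, 83 to 62 for Vcam1, 95 to 249 for Pdgfrb and 195 to 69 for Kitl; Cxcl12 kept rank 1. With each library ranked alone, Adipoq moved to rank 14 in PBS 3 and Vcam1 to 67 in PBS 1. Kitl moved to rank 171 and Pdgfrb to 129, both in PBS 4. The planned coding lengths from a protein table were not run. No paired analysis was possible because 1 group was described and nothing was compared. Counting error limits genes under about 1 CPM, where 3 counts are 0.0723 to 0.0986 CPM.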
